A study of Mus musculus with 7 samples.

Results

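The AP-1 group of transcription factors was followed in splenic regulatory T cells (Tregs) of aged and young mice through 10 members: the Fos proteins Fos, Fosb, Fosl1 and Fosl2, the Jun proteins Jun, Junb and Jund, and the related factors Atf3, Batf3 and Mafk. They were picked by gene symbol, as a group proposed with earlier results of these data known, and the 10 symbols matched 10 of the 47729 genes in the count files. Of these, 9 passed the filter on low counts and were among the 13904 genes tested. RNA-sequencing counts came from CD4+CD25+ cells collected from the spleen with magnetic beads, from WT mice that were 18-month old (aged, 3 libraries) or 8-week old (young, 4 libraries). The study's methods describe male C57BL/6 animals and name another age for the young mice. The labels call the libraries biological replicates and name no operation, treatment, pooling or batch. Beads that bind CD25 also hold back activated conventional T cells, so the cells are called Tregs here after the study's own usage.

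AP-1 is a dimer of basic leucine zipper (bZIP) proteins that binds short DNA sites. Jun proteins pair with each other or with Fos proteins, whereas Fos proteins need a partner. In T cells the dimer acts with NFAT at cytokine genes after stimulation of the antigen receptor and of MAP kinases, and Foxp3, the lineage factor of Tregs, binds NFAT at many of the same sites. Fos, Fosb, Jun, Junb and Atf3 are immediate-early genes, whose transcripts appear within minutes of a stimulus and decay quickly, while Fosl2 and Jund follow slower courses.

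The libraries held 10734234 to 13649310 gene counts. Foxp3 was read at 447 to 622 CPM (counts scaled to the library total, with TMM factors) in aged and 394 to 518 CPM in young Tregs, Cd4 at 434 to 446 and 493 to 633 CPM, and Il2ra, which encodes CD25, at 327 to 481 and 471 to 684 CPM. The 3 defining genes were thus present in all 7 libraries, and edgeR's quasi-likelihood test called none of the 3 different between the ages (adjusted p = 0.409, 0.117 and 0.0588). Both Cd4 and Il2ra were called lower in aged Tregs by DESeq2 (adjusted p = 0.0387 and 0.00652), and Il2ra also by limma (adjusted p = 0.0467 with voom and 0.0495 with trend), by edgeR with no filter (0.0411) or with GC and length trends removed (0.0392), and without aged replicate 1 (adjusted p = 0.0158). Of 13 Treg marker genes, which summed to 4473 to 4918 CPM in aged and 3542 to 5415 CPM in young libraries, 2 were called higher (Cd3e and Nt5e) and 2 lower (Lrrc32 and Gpr83), or 15.4% in each direction, against 9.8% and 6.94% of all genes tested. An unadjusted p under 0.05 was found in 10 of the 13 in edgeR's test (32.7% of all genes). Transcripts of other blood cells were present too. The summed level of 12 neutrophil genes ranged from 740 to 5431 CPM in aged and from 320 to 1019 CPM in young libraries, highest in aged replicate 1, and 9 erythroid genes summed to 13281 to 161114 and 12662 to 119995 CPM. By edgeR's test, 4 of 11 dendritic cell genes were called lower (36.4%, against 6.94% of all genes tested) and 1 higher. Of 12 monocyte or macrophage genes tested, 3 were called lower (25.0%) and 1 higher. Among the 12 neutrophil genes, 0 were called lower and 5 higher (41.7%, against 9.8%). The part of these cells in the levels of the members was not tested. Mitochondrial transcripts took 5.08% to 10.7% of the counts in aged and 2.63% to 3.23% in young libraries. Young replicate 3 stood apart in the genes described here. It was the lowest young library in 5 of the 9 members tested and in 29 of 37 other immediate-early genes (78.4%), against 23.7% of all genes tested. Among the aged libraries, replicate 2 was the lowest in 7 of the 9 members (77.8%, against 33.6% of all genes tested).

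The promoters of Fos, Jun and Junb are shown because Fos and Jun moved together in these libraries while Junb, the paralog of Jun, was not called. The sequences are the 250 bases before the RefSeq start of each gene on GRCm38.p6, written 5′ to 3′ on the strand of the gene. Capitals mark TGACG, the core of the cAMP response element bound by CREB and ATF proteins, or TGACATCA, the variant AP-1 site in the Jun promoter.
Fos (chr12:85473640-85473889, plus strand): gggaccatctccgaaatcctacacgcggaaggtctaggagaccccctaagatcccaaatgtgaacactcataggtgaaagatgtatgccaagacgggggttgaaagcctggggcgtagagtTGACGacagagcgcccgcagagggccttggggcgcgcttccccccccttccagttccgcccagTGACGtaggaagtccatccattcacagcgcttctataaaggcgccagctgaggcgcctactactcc
Jun (chr4:95052223-95052472, minus strand): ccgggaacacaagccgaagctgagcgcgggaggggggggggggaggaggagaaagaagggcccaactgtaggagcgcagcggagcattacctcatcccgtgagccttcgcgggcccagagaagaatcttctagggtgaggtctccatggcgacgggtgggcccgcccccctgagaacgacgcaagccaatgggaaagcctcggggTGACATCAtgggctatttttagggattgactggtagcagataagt
Junb (chr8:84978749-84978998, minus strand): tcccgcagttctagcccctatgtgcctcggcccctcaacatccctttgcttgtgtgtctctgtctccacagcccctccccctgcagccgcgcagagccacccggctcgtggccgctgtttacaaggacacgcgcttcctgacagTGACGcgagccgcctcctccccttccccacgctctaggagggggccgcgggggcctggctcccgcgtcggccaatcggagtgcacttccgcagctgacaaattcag

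Fos held TGACG 129 to 125 and 66 to 62 bases before its start. Jun held TGACATCA 45 to 38 bases before its start, and Junb held TGACG at 106 to 102 bases. A promoter window was at hand for 9 members, all but Fosl1. Among these 9, TGACG on either strand was also found in Fosb, Atf3 and Mafk. Of 32851 promoter windows of the same length, 17.8% held TGACG and 2.93% held TGACATCA. None of the 9 windows held the AP-1 consensus TGACTCA (4.46% of all windows) or the CArG box bound by serum response factor (1.47%). The full cAMP response element TGACGTCA (1.55%), which would also count as TGACG, was not found in them either. Bases further upstream were not searched, so a gene without a match in its window may still hold the site there. The RefSeq starts of Fos and Jun are those of the GENCODE genes given below. The window of Jund ends at 70697738, before its GENCODE start at 70698949, and the windows of Fosl2, Atf3 and Batf3 lie within the GENCODE genes, so for these 4 the search covers the RefSeq start only. TGACG was chosen for the search after the sequences had been seen, and a match describes the letters only.

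Of the 9 members tested, 1 was called higher (Fosl2) and 2 were called lower (Fos and Jun) in aged Tregs by edgeR's quasi-likelihood test (adjusted p under 0.05). The same test called 9.8% of all genes higher and 6.94% lower. The median log2 fold change of the 9 members was −0.37, against 0.02 over all genes. An unadjusted p under 0.05 was found in 4 of the 9, against 32.7% of all genes tested. Because the libraries are bulk RNA, fewer cells carrying a transcript and less of it per cell cannot be told apart in any of these values.

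**Figure D1:**
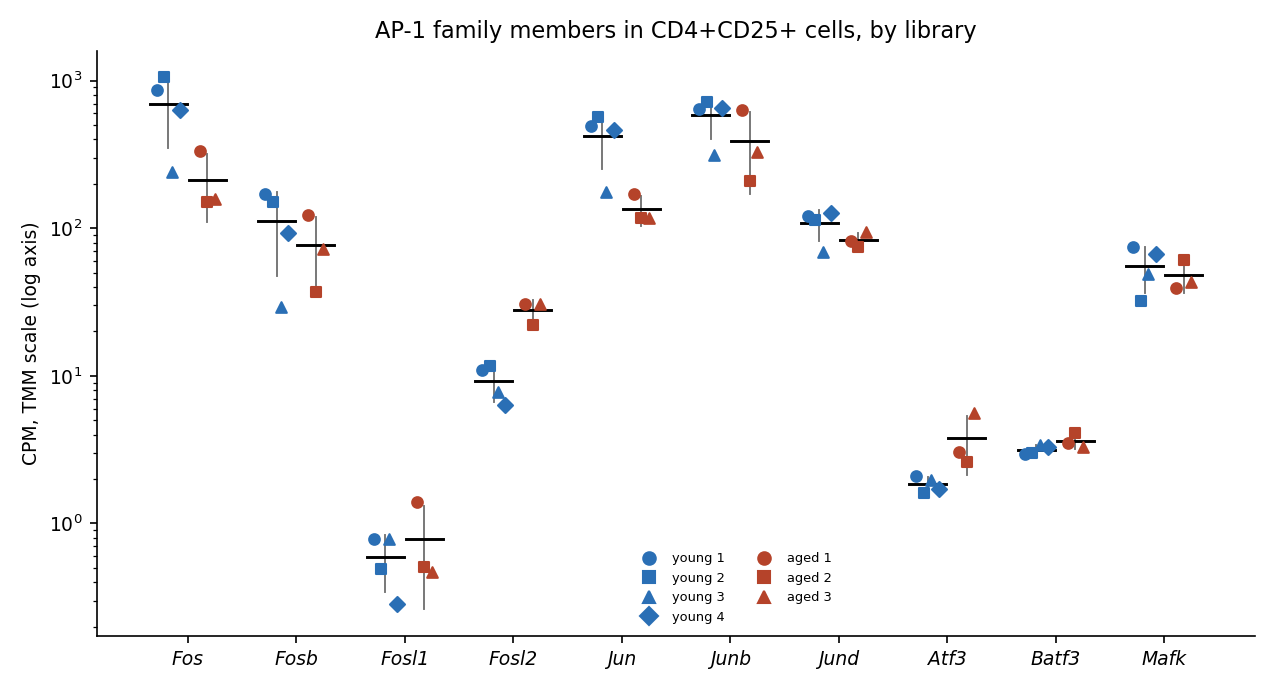
CPM of each AP-1 member on a log axis, with a point for each of the 4 young (blue) and 3 aged (red) libraries, black bars for group means and grey lines for ± SD. Marker shape gives the replicate number, which does not pair libraries across the ages. Fosl2 and Atf3 lie higher in every aged than in any young library, Jun lies lower in every aged library, and the young triangle (replicate 3) is the lowest young point for Fos, Fosb, Jun, Junb and Jund.

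Fos, which gives the dimer its strongest activation domain, lies on chr12:85473890-85477273 (plus strand, coordinates of GENCODE on GRCm38 for this and the genes below). It was read at 334, 150 and 158 CPM in aged replicates 1, 2 and 3, and at 860, 1054, 240 and 637 CPM in young replicates 1, 2, 3 and 4. Young replicates 1, 2 and 4 stood well above the aged ones, but young replicate 3 fell between aged replicates 1 and 3, so the groups overlapped. The means were 214 ± 104 (SD, n = 3) and 698 ± 350 CPM (SD, n = 4). Fos was 3.26-fold lower in aged Tregs, with a log2 fold change of −1.71 ± 0.50 (SE, adjusted p = 0.0495 in edgeR's quasi-likelihood test), just inside the threshold. With a library left out in turn, the log2 fold change stayed between −2.18 and −1.44 while the adjusted p ran from 0.0185 to 0.160, and the call was lost without aged replicate 2 or 3 or without young replicate 1, 2 or 4. Among other tools, limma missed the threshold (adjusted p = 0.0588 with voom and 0.0590 with trend) and DESeq2 passed it (adjusted p = 0.0135).

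Jun, the partner that binds DNA with Fos, lies on chr4:95049034-95052222 (minus strand). Its aged libraries were read at 171, 117 and 118 CPM and its young libraries at 495, 566, 177 and 464 CPM. Every aged library was below every young library, although aged replicate 1 and young replicate 3 were nearly level. The means were 135 ± 30.8 (SD, n = 3) and 425 ± 171 CPM (SD, n = 4). Jun was 3.14-fold lower in aged Tregs (log2 fold change −1.65 ± 0.37, SE; adjusted p = 0.0199 in edgeR's quasi-likelihood test). Without overlap in the aged-below-young direction were also 14.4% of all genes tested, and the smallest two-sided p that an exact permutation test of 3 against 4 libraries can give is 0.0571. Leaving out a library kept the log2 fold change between −1.91 and −1.48, and the adjusted p of edgeR ranged from 0.00319 to 0.0793, with the call lost without aged replicate 2 or 3 or young replicate 1 or 4. On the other strand, 7.28% of the exon length of Jun is shared with the antisense gene Junos, and reads there count for neither gene where strand is not used. Junos itself was near the limit of detection, with 15, 19 and 22 reads in aged and 6, 4, 4 and 9 reads in young libraries. It passed the filter through its aged libraries, so no fold change is given.

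The ratio of Fos to Jun ran from 1.74 to 2.65 over the 7 libraries. Per exon length, the level of Fos divided by that of Jun came to 2.65, 1.74 and 1.81 in the aged libraries (replicates 1 to 3). In the young libraries it came to 2.36, 2.53, 1.84 and 1.86 (replicates 1 to 4). The ages overlapped in this ratio. Over the 7 libraries, Jun was the gene whose centred log2 CPM profile lay closest to that of Fos among 9549 genes with a mean log2 CPM of at least 3 (root mean square difference 0.24), followed by the immediate-early genes Klf4 (0.48) and Ier2 (0.49). For Jun the closest were Fos (0.24), the MAP kinase phosphatase Dusp2 (0.31) and Klf2 (0.33), which keeps T cells quiescent and recirculating. Dusp2 had 260 ± 63.6 CPM in young and 101 ± 19.4 CPM in aged Tregs, and Klf2 269 ± 74.0 and 121 ± 4.44 CPM. Young replicate 3 was the lowest young library in both genes, as in Fos and Jun. These genes were picked for their likeness to Fos and Jun, so their levels describe 7 libraries and carry no test.

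Fosl2, also called Fra-2, is a Fos protein without the activation domain of Fos and lies on chr5:32135801-32157842 (plus strand). It was read at 30.7, 22.0 and 30.7 CPM in aged and at 10.9, 11.7, 7.82 and 6.31 CPM in young Tregs. The lowest aged library was thus well above the highest young one, and young replicate 3 did not stand apart. The means were 27.8 ± 5.04 (SD, n = 3) and 9.19 ± 2.55 CPM (SD, n = 4). Fosl2 rose 3.02-fold with age, a log2 fold change of 1.60 ± 0.23 (SE, adjusted p = 0.00364 in edgeR's quasi-likelihood test). All aged libraries lay above all young ones in 15.5% of the genes tested as well. The call was kept in all 7 fits with a library left out, with log2 fold changes of 1.45 to 1.74 and adjusted p of 0.00390 to 0.0180 in edgeR's test. Closest to Fosl2 in profile were Tigit, an inhibitory receptor of Tregs (root mean square difference 0.20), Nlrp1b, an inflammasome sensor (0.20), and Itgae, the integrin chain CD103 of tissue-homing Tregs (0.20). Tigit had 54.5 ± 13.7 CPM in young and 162 ± 22.5 CPM in aged Tregs, and Itgae 48.6 ± 11.2 and 180 ± 19.1 CPM. A gene picked for likeness to Fosl2 has to differ in the same direction, so these levels are a description with no test.

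**Figure D2:**
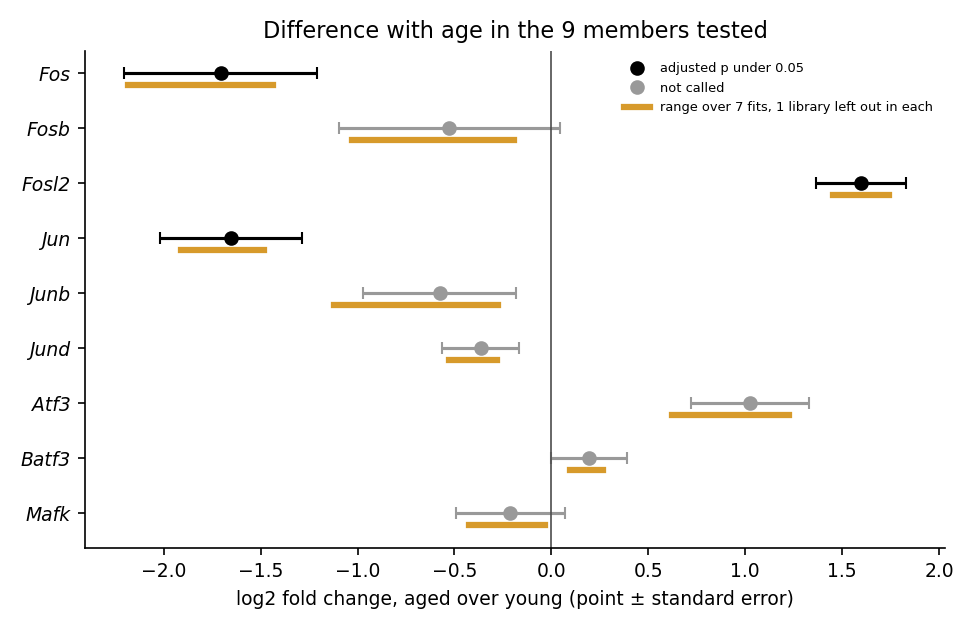
Log2 fold change of aged over young Tregs for the 9 members tested, with the standard error of the edgeR fit as a horizontal bar and the range over the 7 fits with a library left out as an orange line below. Black points passed the adjusted threshold (Fos −1.71, Jun −1.65, Fosl2 1.60) and grey points did not. No orange line crosses 0.

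Fosb, a Fos protein induced together with Fos, lies on chr7:19302696-19310051 (minus strand). Its aged libraries were read at 122, 37.3 and 72.1 CPM and its young libraries at 171, 151, 29.4 and 93.2 CPM. The lowest value of all came from a young library, replicate 3, and every aged value lay within the young range. The difference was smaller than the spread between libraries (log2 fold change −0.53 ± 0.57, SE; adjusted p = 0.570 in edgeR's test). Fosl1, or Fra-1 (chr19:5447547-5455946, plus strand), was near the limit of detection, with 16, 5 and 5 reads in aged and 9, 7, 10 and 4 reads in young libraries. It did not pass the filter and was not tested, and 57.2% of its exon length is shared with Ccdc85b on the other strand, so reads from that stretch were not counted for it.

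Junb, which effector Tregs need for their function, lies on chr8:84974484-84978718 (minus strand). It was read at 634, 208 and 328 CPM in aged and at 639, 720, 315 and 652 CPM in young Tregs. Aged replicate 1 was level with 3 of the young libraries, whereas the other 2 aged libraries were near young replicate 3 or below it. Its log2 fold change was −0.58 ± 0.40 (SE, adjusted p = 0.353 in edgeR's test), between −1.12 without aged replicate 1 and −0.28 without aged replicate 2. Jund, the most evenly expressed Jun protein (chr8:70698949-70700616, plus strand), was read at 82.7, 74.8 and 94.0 CPM in aged and at 121, 114, 69.6 and 127 CPM in young libraries. The aged values lay between young replicate 3 and the other 3 young libraries. Its log2 fold change of −0.37 ± 0.20 (SE) was not called by edgeR (adjusted p = 0.245). Without young replicate 3 it was −0.53 with an adjusted p of 0.0384, in a fit that called 9.28% of all genes. An antisense gene, Gm11175, shares 52.6% of the exon length of Jund, so its counts rest on the remaining part.

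Without young replicate 3, the members called lower were Fos, Jun and Jund (3 of 9, against 3.55% of all genes in that fit). Without aged replicate 2 or 3 or young replicate 1 or 4, 0 members were called lower. Young replicate 3 was singled out for its low values in these same genes. Leaving it out has to widen the differences of Fos, Jun, Junb and Jund, so their values in this fit are a description and no further support. Fosl2 was still called higher (1 of 9, against 5.73% of all genes). The log2 fold change of Fos was then −1.99 (adjusted p = 0.0185) and that of Jun −1.91 (adjusted p = 0.00319), both in edgeR's quasi-likelihood test. Junb was not called without it either (log2 fold change −0.78, adjusted p = 0.218), and Fosl2 had a log2 fold change of 1.53 (adjusted p = 0.0163, edgeR's test).

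Atf3, a bZIP factor that is induced by stress and mostly represses, lies on chr1:191170296-191218039 (minus strand). It was low, with 35, 26 and 60 reads in aged and 24, 23, 25 and 24 reads in young libraries, or 3.06, 2.62 and 5.61 against 2.10, 1.61, 1.97 and 1.72 CPM. Every aged library was above every young library, and aged replicate 3 was far above the other 2. The log2 fold change of 1.02 ± 0.31 (SE) missed the threshold in edgeR's test (adjusted p = 0.0533). Without aged replicate 3 it was 0.62 (adjusted p = 0.185), and without aged replicate 1 or 2 it was called (adjusted p = 0.0478 and 0.0424). Batf3, which directs the development of cross-presenting dendritic cells, lies beside Atf3 on chr1:191097847-191108945 (plus strand). It was read at 3.49, 4.13 and 3.28 CPM in aged and 2.97, 3.01, 3.40 and 3.30 CPM in young libraries, a narrow range in which the ages overlapped (log2 fold change 0.19 ± 0.20, SE; adjusted p = 0.535 in edgeR's test). The summed level of 11 dendritic cell genes was 331 to 383 CPM in aged and 387 to 464 CPM in young libraries; their part in the Batf3 reads was not tested.

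Mafk (chr5:139791513-139802653, plus strand) is a small Maf protein that lacks an activation domain and works with Nfe2 or Bach partners, in red cell precursors at the globin genes. It was read at 39.5, 61.2 and 43.3 CPM in aged and at 75.2, 32.1, 48.6 and 66.4 CPM in young Tregs. The aged values all lay within the young range (log2 fold change −0.21 ± 0.28, SE; adjusted p = 0.649 in edgeR's test). The lowest Mafk levels, in young replicate 2 and aged replicate 1, came from the libraries with the least erythroid RNA, whose 9 marker genes summed to 12662 and 13281 CPM against 63033 to 161114 CPM in the other 5. Those 5 did not keep one order: young replicate 4 had the third lowest erythroid sum and 66.4 CPM of Mafk, next to the highest level, and aged replicate 2 had the highest sum and 61.2 CPM. Nfe2 moved more widely, at 21.9, 167 and 43.1 CPM in aged and 88.1, 8.48, 62.7 and 91.7 CPM in young libraries, again lowest in young replicate 2 and aged replicate 1. The part of red cell precursors in the Mafk reads was not tested, and none of the 9 erythroid markers was called between the ages.

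**Figure D3:**
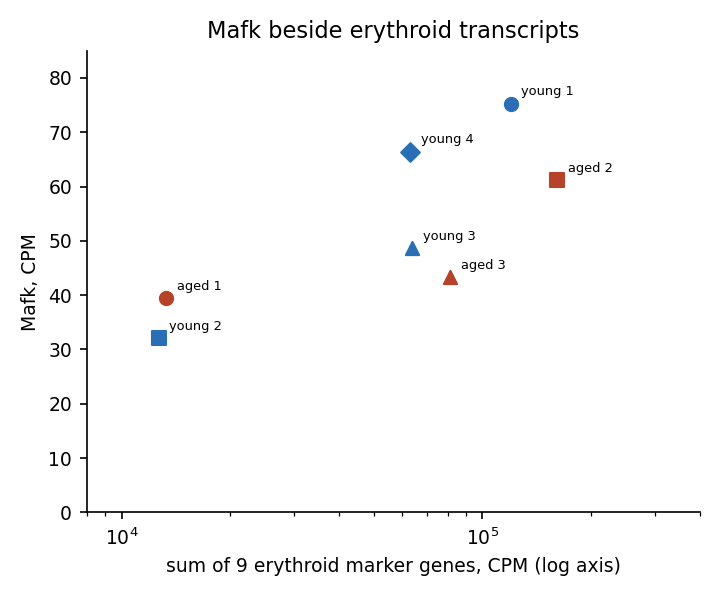
Mafk level (CPM) against the summed CPM of 9 erythroid marker genes on a log axis, with a labelled point per library, aged in red and young in blue. Young replicate 2 (32.1 CPM) and aged replicate 1 (39.5 CPM) hold the lowest values on both axes. The points share their libraries, and no test was made.

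To compare the members with each other, counts were divided by the length of the gene's exons (FPKM, the CPM per kilobase of exon). In young Tregs the order of the mean levels was Fos (297 FPKM), Junb (253), Jun (133), Jund (64.7), Fosb (17.8), Mafk (14.3), Batf3 (1.98), Fosl2 (0.949), Atf3 (0.859) and Fosl1 (0.289). In aged Tregs it was Junb (169 FPKM), Fos (90.9), Jund (50.2), Jun (42.4), Fosb (12.4), Mafk (12.3), Fosl2 (2.87), Batf3 (2.27), Atf3 (1.75) and Fosl1 (0.388). Among young libraries the ranges of neighbours overlapped for Fos and Junb, Junb and Jun, Jun and Jund, Fosb and Mafk, and Fosl2 and Atf3. Among aged libraries they overlapped for Junb and Fos, Jund and Jun, Fosb and Mafk, Fosl2 and Batf3, and Batf3 and Atf3. Jund and Fosl1 are understated on this scale, since reads on the exon bases they share with other genes were not counted. Over the bases that no other gene shares, an alternative added after seeing the data, Jund reached 106 FPKM in aged and 136 FPKM in young Tregs and Fosl1 0.908 and 0.676 FPKM. In aged Tregs Jund then stood above Fos and Mafk above Fosb, with overlapping ranges in both pairs, while the order in young Tregs did not change. The ranges of Atf3 and Fosl1 then overlapped at both ages. Over all exon bases, the 10 members together reached 558, 264 and 334 FPKM in aged and 923, 1043, 358 and 811 FPKM in young libraries, so young replicate 3 lay within the aged range. Fos made up 23.2% ± 2.77 of that sum in aged (SD, n = 3) and 36.1% ± 6.44 in young Tregs (SD, n = 4), and Jun 11.5% ± 2.18 and 16.8% ± 1.01. Junb made up 42.1% ± 7.55 and 33.3% ± 4.05. The share of Jund was 14.3% ± 4.66 and 8.87% ± 2.19, or 24.8% ± 7.33 and 16.3% ± 3.62 over the bases not shared. By either length the share of Fos was below every young value in each aged library, while the shares of Junb and Jund overlapped between the ages. Per length, the ratio of Fos to Fosl2 was 44.8, 28.1 and 21.2 in aged and 324, 371, 126 and 415 in young Tregs, and that of Jun to Fosl2 was 16.9, 16.2 and 11.7 against 138, 147, 68.6 and 223. In both ratios the lowest young library, replicate 3, stood above the highest aged one. These shares and ratios rest on the same values as the tests above and were not tested again.

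**Figure D4:**
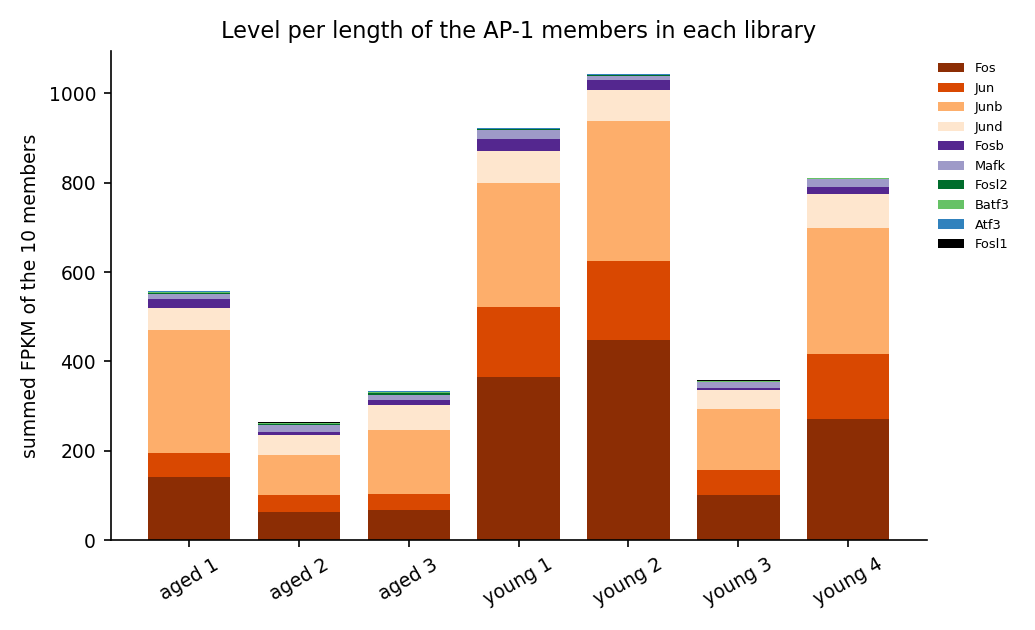
Stacked FPKM of the 10 members in each library, over all exon bases, with a colour per member. Young replicates 1, 2 and 4 reach 811 to 1043 FPKM, and young replicate 3 (358 FPKM) stands among the aged libraries (264 to 558 FPKM). Fos and Jun form the lower segments, and Fosl2, Batf3, Atf3 and Fosl1 are thin strips at the top.

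The immediate-early genes outside the group were described next. Of 37 tested, 4 were called higher (Egr2, Ier3, Socs3 and Irf1) and 4 lower (Zfp36l2, Klf2, Myc and Sgk1) in aged Tregs by edgeR's test, with a median log2 fold change of −0.18. The share was 10.8% in each direction, against 9.8% called higher and 6.94% called lower among all genes tested, and 20 of the 37 had an unadjusted p under 0.05 (32.7% of all genes). The number called lower was 9 without aged replicate 1 (23.7% of the list, against 10.2% of all genes in that fit), 8 without young replicate 3 (21.6%, against 3.55%), 12 with DESeq2 (31.6%, against 8.22%) and 7 with no filter (18.4%, against 3.57%). Young replicate 3 was the lowest young library in 29 of the 37 genes, and aged replicate 1 the highest aged one in 24. Leaving out either library thus favours calls lower, so the counts and calls without them are no separate support. The number called lower was 2 without aged replicate 3 or young replicate 1, and the number called higher was 3 or 4 with a library left out. Over these 7 fits, 5.71% to 11.3% of all genes were called higher and 3.16% to 10.2% lower. Sgk1, a kinase gene induced by serum and salt, fell from 33.4 ± 1.56 to 11.6 ± 3.21 CPM (log2 fold change −1.52, adjusted p = 0.00158), and Zfp36l2, which promotes mRNA decay, from 725 ± 104 to 336 ± 122 CPM (−1.11, adjusted p = 0.0239). Socs3, an inhibitor of cytokine signalling, rose from 73.9 ± 10.8 to 170 ± 43.4 CPM (1.20, adjusted p = 0.00427, edgeR's test). Egr1, Zfp36, Ier2, Nr4a1 and Rhob, 5 classic members of the response that were chosen after their values were seen, were not called by edgeR. All of them leaned lower in aged Tregs. Others of the list, such as Nr4a2, Gadd45b, Klf6 and Per1, leaned higher and were not called either, so the chosen genes do not stand for the list. Egr1 was read at 118, 67.9 and 125 CPM in aged and 192, 151, 52.7 and 153 CPM in young libraries (adjusted p = 0.518, edgeR's test). Zfp36 (log2 fold change −0.87), Ier2 (−0.88), Nr4a1 (−0.53) and Rhob (−0.76) had adjusted p of 0.0997, 0.0969, 0.0611 and 0.202 in edgeR's test. Without young replicate 3, Zfp36, Rhob and Nr4a1 were called lower (adjusted p = 0.0232, 0.0167 and 0.0416), and without aged replicate 1 so were Ier2 and Nr4a1 (adjusted p = 0.0271 and 0.0454, edgeR's test). DESeq2 called Zfp36, Ier2 and Nr4a1 lower with all libraries (adjusted p = 0.0134, 0.0156 and 0.0156), and edgeR with no filter on low counts called Nr4a1 lower (adjusted p = 0.0449). Among the aged libraries, replicate 1 was the highest in 24 of the 37 genes (64.9%, against 36.6% of all genes tested) and replicate 2 the lowest in 22 (59.5%, against 33.6%). Of 13 heat shock genes tested, 2 were called higher (Hspb1 and Bag3; 15.4%, against 9.8%) and 0 lower, with a median log2 fold change of −0.05, and 2 of the 13 had an unadjusted p under 0.05 (32.7% of all genes). Among the aged libraries, replicate 2 was the highest in 8 of the 13 (61.5%, against 33.6% of all genes tested). Replicate 3 was the lowest aged library in 10 (76.9%, against 29.1%). The list members Hspa1a and Hspa1b were not tested. They had 4.23 and 14.2 CPM in aged replicate 2 and at most 0.437 and 1.86 CPM in any other library. Bag3, a co-chaperone, rose from 7.0 ± 1.09 to 21.3 ± 2.44 CPM (1.60, adjusted p = 0.000933, edgeR's test). The part that handling of the cells has in these levels was not tested.

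**Figure D5:**
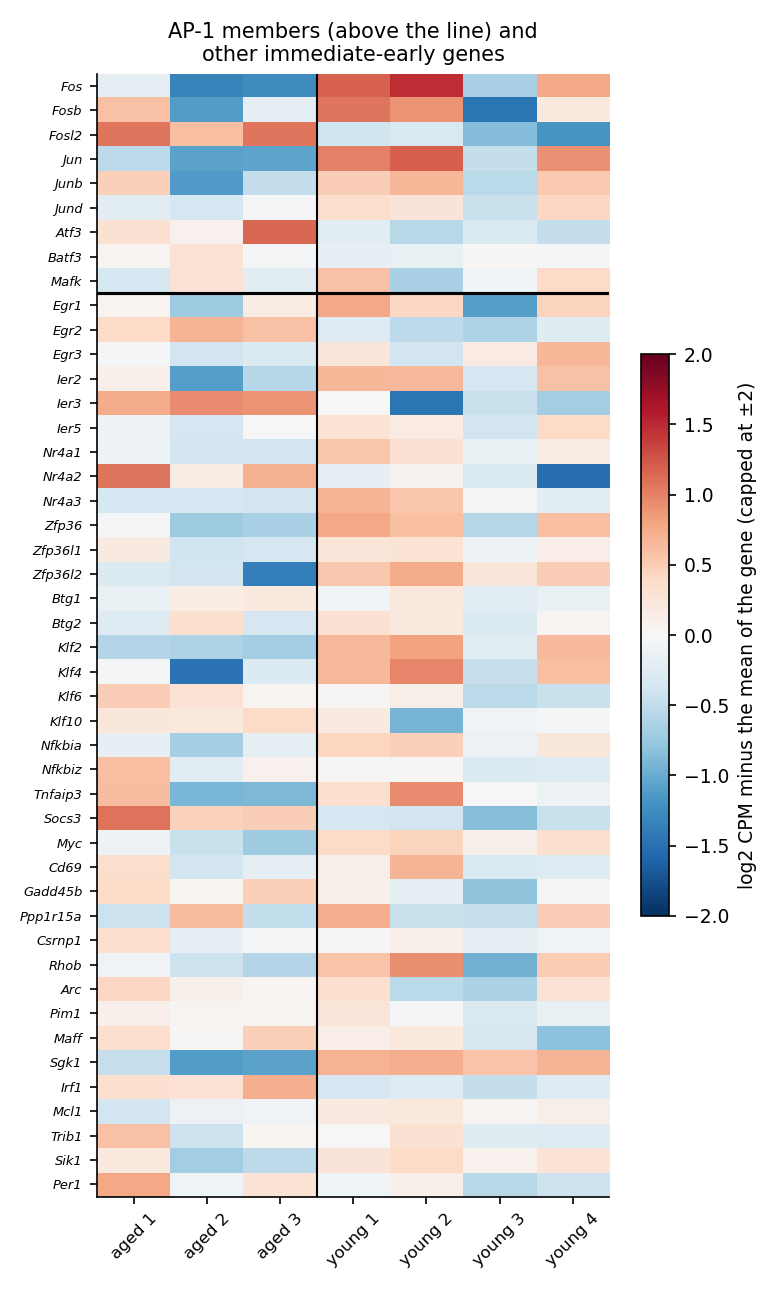
Log2 CPM of the 9 AP-1 members tested (above the horizontal line) and 37 other immediate-early genes, each minus its own mean over the 7 libraries, red for above and blue for below that mean. The vertical line separates 3 aged from 4 young libraries. Fos and Jun are red in young replicates 1, 2 and 4 and blue in young replicate 3 and the aged libraries, and Fosl2 shows red only in aged libraries; young replicate 3 is the lowest young column in 29 of the 37 genes.

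Of 36 genes tested in a list of other bZIP factors, 5 were called higher (Batf, Maf, Cebpb, Hlf and Tef) by edgeR's test. In the other direction 4 were called lower (Atf1, Bach2, Cebpz and Dbp), and the median log2 fold change was 0.38. These are 13.9% and 11.1% of the list, against 9.8% and 6.94% of all genes tested. An unadjusted p under 0.05 was found in 16 of the 36 (32.7% of all genes). Cebpz entered the list by its symbol and is not a bZIP protein, so the counts hold for the list as drawn up. Without aged replicate 1, 10 were called higher (27.0%, against 11.3% of all genes in that fit), and the number called lower was 1 without aged replicate 3 and 2 whichever young library was left out. Batf, which pairs with Jun proteins at sites shared with Irf4, rose from 46.7 ± 7.95 to 93.1 ± 12.8 CPM (log2 fold change 1.00, adjusted p = 0.00397). Maf, a driver of Il10 in T cells, rose from 60.3 ± 7.33 to 131 ± 15.7 CPM (1.12, adjusted p = 0.00131). Bach2, which restrains effector genes at AP-1 sites and pairs with small Maf proteins, fell from 118 ± 16.1 to 51.5 ± 12.5 CPM (−1.19, adjusted p = 0.00503), and Dbp, a clock output factor, fell from 11.3 ± 0.863 to 6.84 ± 0.760 CPM (−0.72, adjusted p = 0.0159, edgeR's test). In Batf, Maf, Bach2 and Dbp the aged and young libraries did not overlap. Over all genes tested, 15.5% had every aged library above every young one and 14.4% every aged library below. These genes were named as called genes with large fold changes, which favours separate groups. Young replicate 3 was within the range of the other young libraries in Batf and was the lowest of them in Maf and Dbp and the highest in Bach2.

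Of 38 genes of the MAP kinase cascade upstream of AP-1, 4 were called higher (Map3k5, Araf, Mapk9 and Elk4) and 6 lower (Map2k6, Rps6ka1, Mapk10, Mapk14, Map2k2 and Srf) by edgeR's test, with a median log2 fold change of −0.15. The share called higher was 10.5%, near the 9.8% of all genes tested, and the share called lower was 15.8%, against 6.94%. An unadjusted p under 0.05 was found in 20 of the 38 (32.7% of all genes). The number called higher was 2 without aged replicate 3 or when any young library was left out alone, and the number called lower was 3 without aged replicate 3 or young replicate 1 or 4. Map3k5, the stress kinase ASK1, rose from 51.7 ± 3.40 to 100.01 ± 8.72 CPM (log2 fold change 0.95, adjusted p = 0.000976), and Map2k6, which activates p38 kinases, fell from 12.3 ± 1.47 to 6.49 ± 1.84 CPM (−0.92, adjusted p = 0.0252, edgeR's test). Rps6ka1, a kinase below ERK, fell by 0.58 and Araf, a Raf kinase, rose by 0.54, both as log2 fold changes (adjusted p = 0.0112 and 0.0104, edgeR's test). Of 10 dual-specificity phosphatases, which switch MAP kinases off, 2 were called higher (Dusp14 and Dusp16) and 2 lower (Dusp2 and Dusp6), each 20.0% of the list against the same 9.8% and 6.94%, with a median of −0.47 and 7 of the 10 at an unadjusted p under 0.05. Each direction had 1 call whichever young library was left out, 1 was called higher without aged replicate 3, and 4 were called lower without aged replicate 1, where 10.2% of all genes were. Dusp6, specific for ERK, fell from 56.8 ± 5.76 to 32.3 ± 11.4 CPM (−0.81, adjusted p = 0.0431), and Dusp16, which acts on Jnk and p38, rose from 13.5 ± 1.30 to 20.3 ± 4.34 CPM (0.59, adjusted p = 0.0411, edgeR's test). Dusp1, the immediate-early member, had 423, 349 and 241 CPM in aged and 609, 892, 333 and 520 CPM in young libraries and was not called by edgeR (adjusted p = 0.125), whereas DESeq2 called it lower (adjusted p = 0.0246).

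Of 18 genes of AP-1 partners in T cells, 0 were called higher and 2 lower (11.1%, against 6.94% of all genes tested), with a median log2 fold change of −0.04, and 8 of the 18 had an unadjusted p under 0.05 in edgeR's test (32.7% of all genes). Without aged replicate 1, 6 were called lower (33.3%, against 10.2% of all genes in that fit) and 1 higher, and 0 were called in either direction when any other library was left out alone. With all libraries, DESeq2 called 5 lower (27.8%, against 8.22% of all genes in that fit) and 0 higher. With limma voom 4 were called lower (22.2%, against 7.03%) and 1 higher. When edgeR scaled by library size only, 0 were called in either direction. Ets1 and Cbfb, partners of AP-1 at T cell enhancers, had log2 fold changes of −0.57 and −0.36 (adjusted p = 0.0398 and 0.0431, edgeR's test). With a library left out these ran from −0.70 to −0.44 and from −0.40 to −0.29, with adjusted p of at most 0.108 and 0.102 in edgeR's test. Of 17 genes of AP-1 turnover and cofactors, 0 were called higher and 2 lower (11.8%), with a median of −0.13 and 6 of the 17 at an unadjusted p under 0.05. The number called lower was 4 without aged replicate 1 and 1 without aged replicate 2 or 3 or young replicate 1 or 4, and 1 gene was called higher without aged replicate 2. Itch, the ubiquitin ligase of Jun and Junb, fell from 115 ± 4.84 to 86.2 ± 7.60 CPM (log2 fold change −0.42, adjusted p = 0.0195), and Pcbp2, an RNA-binding protein that works with Itch, from 157 ± 6.47 to 105 ± 14.3 CPM (−0.58, adjusted p = 0.0106, edgeR's test).

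Of 32 genes with AP-1 sites known from the literature, 24 passed the filter, 7 of them were called higher (Spp1, Il1b, S100a9, S100a8, Tnf, Icos and Ccl4) and 0 lower by edgeR's test, where 9.8% of all genes tested were called higher. The list was drawn up with earlier results known, and Spp1, below 1 CPM in every young library, passed the filter through its aged libraries, so the count is a description and no evidence about AP-1 sites. The number called higher fell to 3 without young replicate 1 or 4 and to 4 without aged replicate 3, and it was 11 with no filter on low counts (34.4% of the list, against 5.16% of all genes in that fit); 0 to 2 were called lower over all alternatives. Il2, the cytokine gene at which AP-1 and NFAT act together, had 0 to 8 reads in each library and was not tested. Spp1, the secreted protein osteopontin, was read at 21.8, 9.26 and 37.4 CPM in aged and 0.699, 0.280, 0.158 and 0.430 CPM in young libraries, and no fold change is given because of how it passed the filter. Il1b was read at 68.8, 63.4 and 115 CPM in aged and 12.4, 4.90, 7.19 and 10.7 CPM in young libraries (3.23, adjusted p = 0.00110, edgeR's test). S100a9 and S100a8, which also stand in the neutrophil list, were also higher in aged Tregs, with log2 fold changes of 2.43 and 2.25 (adjusted p = 0.0278 and 0.0468, edgeR's test). Without aged replicate 1 these were 1.58 and 1.29. In S100a8 the ages overlapped, aged replicate 3 at 155 CPM lying below young replicate 3 at 229.7 CPM. Of the 12 neutrophil genes, 5 were called higher (41.7%), and their summed level is given above by age. It was lowest among the aged libraries in replicate 3, where Spp1 and Il1b were highest. The part of other cells in these genes was not tested.

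Spp1, Junos and the genes named only for a profile like that of Fosl2 were left out of the next counts. Among the other 25 named genes outside the group that edgeR called, 12 kept the call in all 7 fits with a library left out. The remaining 13 lost it in at least 1 of them, and these were Cbfb, Ccdc85b, Cebpb, Dbp, Dusp6, Dusp16, Ets1, Itch, Klf2, Map2k6, S100a8, S100a9 and Zfp36l2. Klf2 lost it without aged replicate 3, where the adjusted p of edgeR was 0.0516, and Zfp36l2 without young replicate 1 or 4, with at most 0.0590. S100a8 and S100a9 lost it without aged replicate 1, among others, with adjusted p of up to 0.132 and 0.0796 in edgeR's test.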

How the data were processed

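CD4+CD25+ splenocytes of aged (3 libraries) and young (4 libraries) mice were sequenced with the SMART-Seq v4 kit. The authors deposited raw counts of reads per Ensembl gene for each library, in the layout of HTSeq-count, which by its naming used the union rule without strand. The aligner is not given in the sources used here, and mm10 is the build in the submitters' processing notes. Reads that the files list as falling outside genes or within more than 1 gene (13.1% to 20.9% of each file) were left out. The authors also deposited a table with a signal per gene and library, which is the count divided by a size factor, and only its gene symbols and identifiers were used. Its log2 fold changes, standard errors, p-values and adjusted p-values, under the column names of DESeq2, are the authors' own comparison and were not used.

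R 4.3.3 with edgeR 4.0.16 gave the tests: TMM factors, genes kept by filterByExpr on the age groups, and a quasi-likelihood test of age alone. Benjamini-Hochberg adjustment covered the 13904 genes tested, and calls were made at an adjusted p under 0.05. The study's methods name limma; voom and trend fits of limma 3.58.1 and DESeq2 1.42.0 were alternatives. The fitting code was tested on simulated data. CPM use TMM factors and are given as mean ± SD over libraries, and FPKM divide them by the union of exons in GENCODE M21 on GRCm38, matched by Ensembl identifier. No molecular identifiers were used, so read numbers carry amplification noise beyond counting error. Replicates of a group differed by more than sampling noise (chi-square per degree of freedom 8.65 to 182). Where nothing further is known of how the replicates were made, p-values measure the spread between these libraries.

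The members and the gene lists were chosen with earlier results of these data known. Named genes are every member, up to 4 called genes per list with the largest absolute log2 fold change and a mean log2 CPM of at least 3, the 3 genes closest in profile to each called member, and Foxp3, Cd4 and Il2ra. Other genes named stand with a reason beside them, and Cebpb, Nfe2, Il2, Junos, Dusp1 and the genes that share exons with members fall outside the rule. The symbols Ccn1, Cop1 and Itgam of the lists were not matched and were not analysed here.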

Additional observations from a re-analysis of the deposited data

Results flagged for a closer look

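Young replicate 3 was far below the other 3 young libraries in 2 of the 10 members, by a gap large against the range of its group (Dixon's ratio on log2 CPM, above its 95% value for 4 libraries). It held 176.67 CPM of Jun, where the other young libraries held 464 to 566 CPM, and 315.4 CPM of Junb, where they held 639 to 720 CPM. The ratio of the gap to the range was 0.830 in Jun, only just above that value, and 0.857 in Junb. On the CPM scale it was 0.739 and 0.801, and neither gene passed. Chance alone marks about 1 group in 20 in this way, and groups of 3, such as the aged libraries, were not tested. The same library was also the lowest young one in Fos, Fosb and Jund. The values of Fos, Jun, Junb, Jund and Fosl2 without it stand in the text above.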

How the results depend on the processing

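None of the 9 members tested changed direction in any of the 17 alternative fits, and Fosl1, fitted in 4 of them, was called in 0. Fosl2 was called in 16 of them, Jun in 12, Fos in 8, Atf3 in 4 and Jund in 1, and Fosb, Junb, Batf3 and Mafk in 0. The number of members called higher was 1 in the fit reported, 2 when at least 10 counts were required in every library, 2 when mitochondrial, immunoglobulin and haemoglobin genes were left out, and 1 to 2 with a library left out. The number called lower was 2 in the fit reported, 1 with limma voom, 1 with limma-trend, 1 with at least 10 counts in every library, and 0 to 3 with a library left out: 0 without aged replicate 2 or 3 or young replicate 1 or 4, 1 without young replicate 2 and 3 without young replicate 3.

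Over all genes, 1362 were called higher and 965 lower. With trends on GC content and gene length removed, which is possible for 99.7% of the genes, the split was 1200 higher and 1481 lower. When the log2 fold change also had to reach 1 in size, 757 and 259 were left. With a library left out, 783 to 1603 were called higher and 448 to 1455 lower. Nfe2, not called in any fit, had a log2 fold change of 0.30. With a library left out it ran from −0.95 (without aged replicate 2) to 0.74 (without aged replicate 1), and it was −0.07 without young replicate 2. FPKM over the longest transcript kept the order of the members at each age, and 7 of the 20 mean levels moved by more than their SD. Over exon bases not shared with other genes, 4 of the 20 did, those of Jund and Fosl1. The causes were not tested.

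The replicate numbers do not pair libraries across the ages: deviations of libraries with the same number correlated at −0.09, −0.29 and −0.14. With the replicate number as a block, 0 members were called higher and 0 lower, and over all genes 202 were called higher and 90 lower. The adjusted p of edgeR's test was then 0.0565 for Fosl2, 0.0968 for Jun and 0.130 for Fos, and 7 of the 25 named genes called outside the group (counted as in the text above) remained called.

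Low depth limits Fosl1 (4 to 16 reads in a library) and Atf3 (23 to 60 reads). Reads shared with overlapping genes on either strand were not counted, which bears on Fosl1 and Jund.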
